A study of Mus musculus with 4 samples.

Results

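The genes described here carry glucose into the cell and break it down to pyruvate and lactate. The list named 35 of them by function. A member was measured where the platform annotation paired a probeset, a set of probes summarised into 1 signal, with that symbol alone. This held for 31 of the 35 members, out of 22180 genes on the array, and where a member had several such probesets the brightest over the 4 arrays stood for it. Gpi1 (glucose phosphate isomerase), Pfkfb1, Aldoa (aldolase A) and Eno1 (alpha-enolase) had no probeset of their own by this rule and were not analysed here.

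Islets, the endocrine cell clusters of the pancreas, came from C57BL/6 mice 5 to 6 months old. The control group was WT littermates, and the other group was mice carrying a GPR41 transgene (41 Tg in the labels, Tg below). GPR41, the product of Ffar3, responds to short-chain fatty acids and signals through G proteins. Each group had 2 arrays, labelled biological replicates, and islets of both groups were held in RPMI medium before RNA extraction. The labels name neither the promoter of the transgene nor the cells it drives, and they do not say how many mice gave islets to an array. Values are log2 signals, so a difference of 1 is 2-fold, and every difference is Tg minus WT.

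Glucose enters by facilitative transporters and is phosphorylated to glucose 6-phosphate, which traps it. Phosphofructokinase then commits the sugar to glycolysis, and pyruvate leaves either as lactate or through pyruvate dehydrogenase into the mitochondrion. In beta cells this flux is tied to insulin secretion: high-capacity transport by GLUT2 lets glucose inside the cell follow blood glucose, and the ATP that results from its breakdown closes potassium channels. Most steps have several isoforms encoded by separate genes, which differ between tissues in kinetics and regulation.

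The proximal promoters of 4 members are shown because Pdk4 and Pfkl were the members with an unadjusted p under 0.05, because Pfkp differed in the opposite direction at the same step as Pfkl, and because Pgk1 holds the short motif that was common among the members. Each is the 250 bases before the RefSeq transcription start (GRCm38.p6), 5′ to 3′ on the strand of the gene, with matches to the searched motifs in capitals.
Pdk4, chr6:5496279-5496528, minus strand: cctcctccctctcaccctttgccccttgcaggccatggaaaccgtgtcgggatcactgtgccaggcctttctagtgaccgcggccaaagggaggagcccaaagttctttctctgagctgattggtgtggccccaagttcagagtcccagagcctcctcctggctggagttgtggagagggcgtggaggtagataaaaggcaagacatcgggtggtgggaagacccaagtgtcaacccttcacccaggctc
Pfkl, chr10:78009808-78010057, minus strand: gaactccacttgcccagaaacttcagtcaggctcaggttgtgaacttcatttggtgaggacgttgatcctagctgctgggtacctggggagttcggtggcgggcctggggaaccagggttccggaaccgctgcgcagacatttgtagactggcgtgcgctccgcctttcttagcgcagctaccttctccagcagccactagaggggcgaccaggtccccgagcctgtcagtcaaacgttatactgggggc
Pfkp, chr13:6648772-6649021, minus strand: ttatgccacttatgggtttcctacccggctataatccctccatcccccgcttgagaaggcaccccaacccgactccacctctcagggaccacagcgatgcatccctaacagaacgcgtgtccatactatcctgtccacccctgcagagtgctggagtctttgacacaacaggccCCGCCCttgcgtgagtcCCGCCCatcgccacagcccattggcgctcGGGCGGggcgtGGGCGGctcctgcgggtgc
Pgk1, chrX:106186850-106187099, plus strand: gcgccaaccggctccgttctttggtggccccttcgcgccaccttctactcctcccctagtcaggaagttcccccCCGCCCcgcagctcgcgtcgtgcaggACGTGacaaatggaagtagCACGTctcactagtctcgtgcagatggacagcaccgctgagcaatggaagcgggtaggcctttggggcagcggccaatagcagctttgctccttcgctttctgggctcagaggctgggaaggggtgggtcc

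The search covered both strands for ACGTG (the core letters that hypoxia-inducible factors bind), CACGTG (the E-box, which contains ACGTG), TGACGTCA (the letters of the cAMP response element), TGTTTAC (forkhead factors), GGGCGG (the GC box of Sp1) and TATAAA. RefSeq promoters matched 30 of the 31 measured members, with 42 windows in all because some genes have several starts; Slc2a3 had no entry. ACGTG stood in 17 of the 42 windows (40.5%), against 16.6% of all 32851 windows of this length, and these windows belonged to 14 genes. The 14 were Slc2a1, Hk2, Hk3, G6pc2, Pfkm, Pfkfb2, Pfkfb3, Fbp2, Pgk1, Pgam1, Pkm, Pdk2, Pdk3 and Slc16a3. The windows of the members also had a higher median G and C content, 56.4% against 52.4%, and its part in the count of matches was not tested. CACGTG stood in 5 windows (11.9%, against 6.02% of all) and GGGCGG in 15 (35.7%, against 32.7%). TATAAA stood in 2 (4.76%, against 12.4%), TGTTTAC in 1 (2.38%, against 3.17%) and TGACGTCA in 0 (against 1.55%). Pfkp held 4 GC boxes and Pgk1 held 2 ACGTG matches and 1 GC box, while none of these letters stood in the windows of Pdk4 and Pfkl. A match says only that the letters are there.

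None of the 31 measured members passed the test between Tg and WT islets, which was limma's moderated test with Benjamini-Hochberg adjustment over all 22180 genes at a threshold of 0.05. Of all genes, 0.897% passed. At an unadjusted p under 0.05, 2 of the 31 members were called, both lower in Tg, against 11.8% of all genes in either direction and 5.72% lower. One member, Pdk4, also differed by at least 1.5-fold, against 3.48% of all genes, 1.13% lower. The Tg arrays lay wholly above or wholly below the WT arrays for 11 members, 4 higher and 7 lower, while 42.3% of all genes had such groups, 18.6% higher and 23.7% lower. The median difference was -0.04 over the members and -0.02 over all genes, with 13 members above 0 and 18 below; of all genes 45.7% lay above 0 and 54.3% below.

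The intervals give a range for each difference in signal under limma's model, which need not bound the change of the transcript. The 95% confidence interval, not adjusted for the number of genes, lay within 1.5-fold in both directions for 26 of the 31 members, as it did for 77% of all genes. Pdk4, Fbp1, Pfkl, Pfkm and Slc2a1 were the other 5. It lay within 2-fold for 29, all but Pdk4 and Fbp1, and for 95.4% of all genes. With 2 arrays a group, the smallest two-sided p of an exact permutation test is 0.333, so the p-values below rest on limma's model, with 2 residual degrees of freedom and 3.76 added by moderation.

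**Figure D1:**
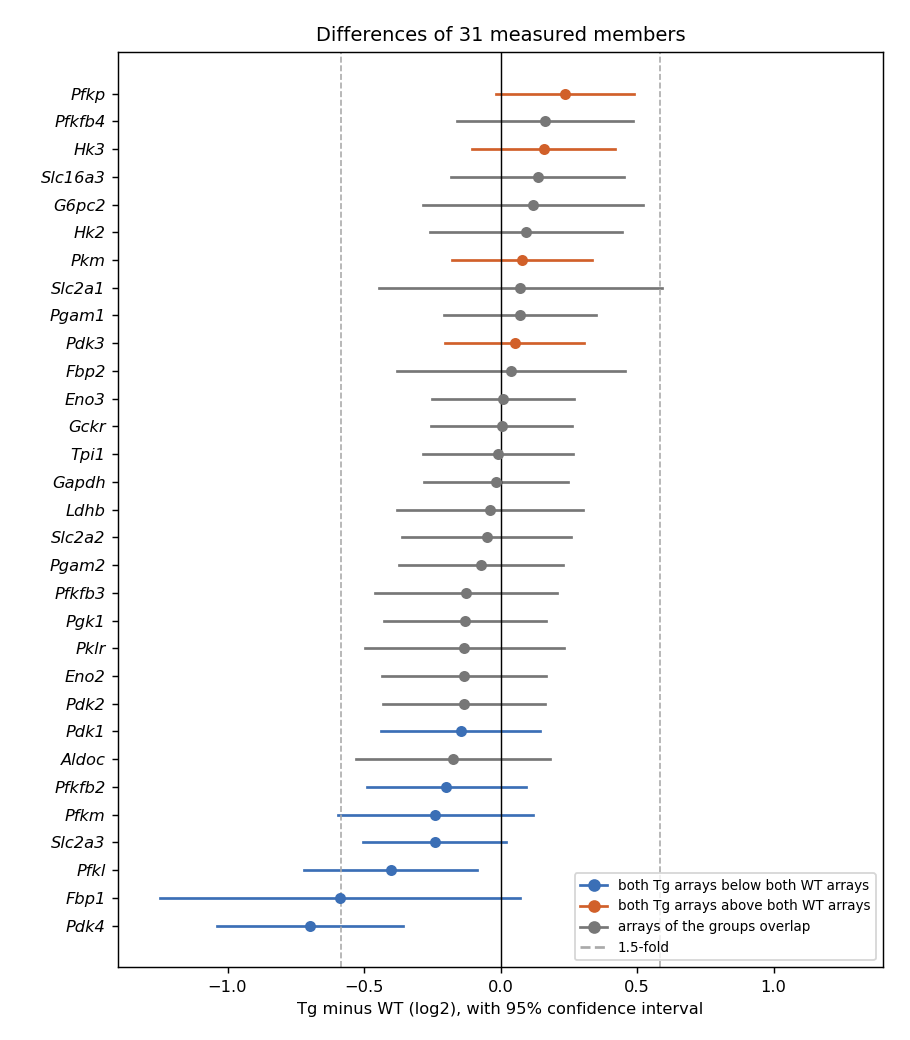
Difference of each measured member (x axis, Tg minus WT, log2; point) with its 95% confidence interval (line), ordered by size, and the 1.5-fold limits as dashed lines. Pdk4 at -0.70 and Pfkl at -0.40 are the members whose interval leaves out 0, and Fbp1 at -0.59 has the widest interval.

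Signals of different probesets depend on their probes as well as on the transcript, so they do not show which isoform of a step is the most abundant. For some members the share of all 27037 probesets of the same array at or below the signal is given, and changes are read within a gene. Array medians lay between 6.43 and 6.47 and first quartiles between 4.93 and 4.98. By this measure 17 members lay above the third quartile on all 4 arrays, 5 lay under the median on all 4 (Slc2a3, Hk3, Gckr, Pgam2 and, by its single-gene probeset, Slc16a3), and Gckr lay under the first quartile. For such dim probesets part of the signal can be background, which shrinks differences.

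**Figure D2:**
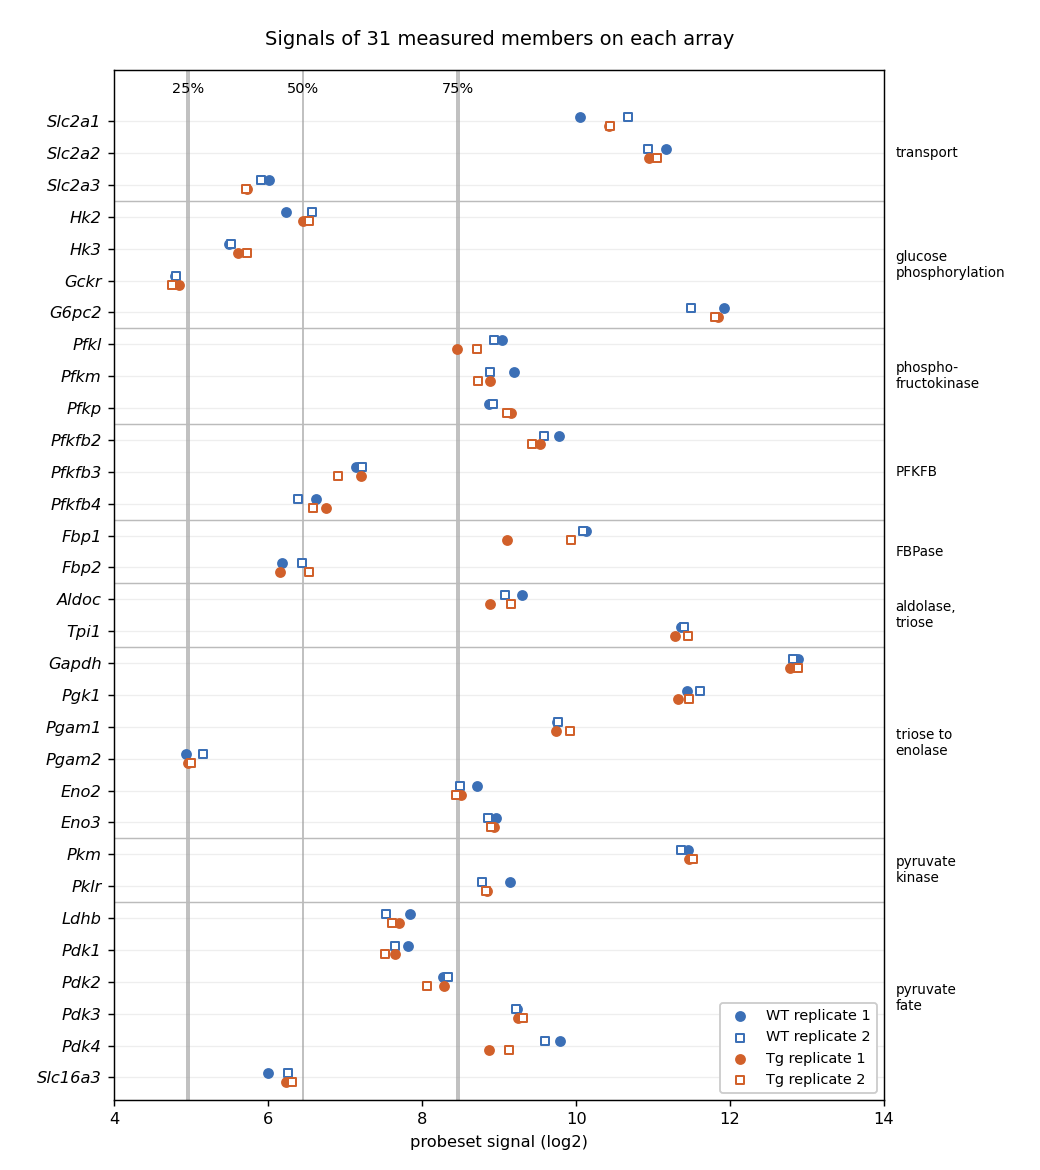
Log2 signal (x axis) of each measured member on each of the 4 arrays, grouped by step, with WT in blue and Tg in orange, replicate 1 filled and replicate 2 open; grey bands mark the quartiles of all probesets. Blue and orange points of a gene lie close together in nearly all rows, and Fbp1, Pdk4 and Pfkl have the widest gaps to the left.

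At the transport step, Slc2a2, which encodes GLUT2, the low-affinity transporter of rodent beta cells, read 11.17 and 10.94 in WT and 10.95 and 11.05 in Tg. The groups overlapped, and the difference was -0.05 (SE 0.13, 95% interval -0.36 to 0.26), at a level above 96.6% to 97.4% of probesets. Slc2a1, the widely expressed GLUT1, read 10.05 and 10.68 in WT and 10.43 and 10.44 in Tg. Both Tg arrays lay between the WT arrays, so its difference of 0.07 (SE 0.21) is smaller than the gap of 0.63 inside the WT group. A second, dim probeset of Slc2a1 had a difference of 0.12 (SE 0.14). Slc2a3, the high-affinity GLUT3 known from neurons, read 6.01 and 5.90 in WT and 5.72 and 5.71 in Tg. Its Tg arrays lay below both WT arrays, with a difference of -0.24 (SE 0.11, adjusted p = 0.454 by limma) at 38.6% to 44.2% of its arrays' probesets.

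Slc2a1 was lowest on WT replicate 1 and highest on WT replicate 2, and so was the mean of the acinar markers, genes of the enzyme-secreting exocrine cells that surround islets. Over the 8 measured acinar markers of 11 listed it was 11.02 and 11.90 in WT and 11.73 and 11.36 in Tg, and none of the 8 was under the array median on all 4 arrays. Bhlha15 of that list was instead lowest on WT replicate 2 (8.12). The mean of the 5 measured duct cell markers of 7 was also lowest on WT replicate 1 and highest on WT replicate 2. It was 7.63 and 8.60 in WT and 8.57 and 8.40 in Tg. Of the duct list, only Krt19 and Sox9 had that order themselves. Krt7 was instead lowest on WT replicate 2 (8.30), and Cftr (7.80) and Epcam (10.93) were highest on Tg replicate 1. The part of either cell type in the Slc2a1 values was not tested. In whole islets, fewer cells of a type and less RNA per cell cannot be told apart.

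At glucose phosphorylation, G6pc2, the islet-specific glucose 6-phosphatase subunit, which turns glucose 6-phosphate back into glucose, read 11.92 and 11.49 in WT and 11.84 and 11.80 in Tg. The Tg arrays lay between the WT arrays (difference 0.12, SE 0.16), at a level above 98.3% to 99.0% of probesets. Hk2, an insulin-responsive hexokinase of muscle and fat, read 6.23 and 6.56 in WT and 6.45 and 6.52 in Tg (difference 0.09, SE 0.14), again inside the WT range. Hk3, a hexokinase of myeloid cells, read 5.49 and 5.52 in WT and 5.61 and 5.72 in Tg. Its Tg arrays both lay above the WT arrays, but by little (difference 0.16, SE 0.11, adjusted p = 0.644 by limma). Gckr, a regulatory protein known from liver, lay near the dim end of every array, from 4.75 to 4.84, with a difference of 0.0043 (SE 0.10).

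Leukocyte markers were higher on the Tg arrays, beside Hk3 and every other member with a higher Tg value. All 14 measured markers of 15 listed had a difference above 0 (median 0.94), 11 at an unadjusted p under 0.05, and their mean was 7.51 and 7.27 in WT and 8.43 and 8.20 in Tg. Over all genes Cd53 (1.74, SE 0.17) and Coro1a (0.94, SE 0.10) passed, and 1 marker of the 14 lay under the array median throughout. Their part in the members' values was not tested.

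Phosphofructokinase, the committed step, is a tetramer of subunits from 3 genes, whose differences ran in both directions. Pfkl, the liver type, read 9.04 and 8.94 in WT and 8.46 and 8.71 in Tg. Both Tg arrays lay below both WT arrays, a 1.32-fold lower mean (difference -0.40, SE 0.13, 95% interval -0.72 to -0.08, unadjusted p = 0.022 and adjusted p = 0.309 by limma). Pfkm, the muscle type, read 9.20 and 8.88 in WT and 8.88 and 8.72 in Tg, with a difference of -0.24 (SE 0.14). Its Tg arrays lay below the WT arrays, although WT replicate 2 and Tg replicate 1 nearly coincided. Pfkp, the platelet type, read 8.87 and 8.92 in WT and 9.16 and 9.10 in Tg. Here the Tg arrays lay above both WT arrays, with a difference of 0.24 (SE 0.10, 95% interval -0.02 to 0.49, adjusted p = 0.452).

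Taken within each array, the Pfkl signal minus the Pfkp signal was 0.16 and 0.02 in WT and -0.70 and -0.39 in Tg, a shift of -0.64. The groups did not overlap, and the exact two-sided permutation p was 0.333, the smallest that these arrays allow. For Pfkm minus Pfkp the values were 0.32 and -0.04 in WT and -0.28 and -0.38 in Tg, a shift of -0.47 with the same exact p. Such a shift sets the changes of a pair of probesets side by side, does not rank their transcripts, and this p does not separate it from the spread between arrays. Of the 20 pairs of isoforms within a step, 13 had groups that did not overlap, and these pairs were picked after their values were seen. Pairs of a step share genes, so they are not separate counts. Among single genes 42.3% had such groups, and the share over other pairs of genes was not computed.

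The PFKFB enzymes make and remove fructose 2,6-bisphosphate, the strongest activator of phosphofructokinase. Pfkfb2, the heart type, read 9.77 and 9.59 in WT and 9.53 and 9.43 in Tg. The Tg arrays lay below the WT arrays by a small margin, and the difference was -0.20 (SE 0.12, adjusted p = 0.592 by limma). Pfkfb3, the inducible type with high kinase activity, had a difference of -0.13 (SE 0.13) and Pfkfb4, the testis type, one of 0.16 (SE 0.13). The groups overlapped for both, and Pfkfb4 lay near the array median, between 6.39 and 6.75.

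Fructose bisphosphatase runs the phosphofructokinase step backwards and belongs to gluconeogenesis. Fbp1, the liver type, read 10.13 and 10.09 in WT and 9.10 and 9.94 in Tg. The WT arrays nearly coincided and both Tg arrays lay below them, but most of the mean difference of -0.59 (SE 0.27, 95% interval -1.25 to 0.07, adjusted p = 0.470 by limma) came from Tg replicate 1. The difference was -0.17 without Tg replicate 1 and -1.01 without Tg replicate 2. Fbp2, the muscle type, lay close to the array median on every array and had a difference of 0.04 (SE 0.17).

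The array with the low Fbp1 value also had the lowest values of a pair of markers of endocrine cells other than beta cells. Ttr, abundant in alpha cells, read 13.50 and 13.25 in WT and 12.73 and 13.12 in Tg. Irx2, an alpha cell transcription factor, read 8.63 and 8.30 in WT and 7.36 and 7.85 in Tg. Over that list, 5 of the 6 measured genes of 7 had a difference below 0 (median -0.32), 0 passed over all genes and 2 had an unadjusted p under 0.05. The mean of the list was 11.67 and 11.49 in WT and 11.25 and 11.24 in Tg, so it did not itself set Tg replicate 1 apart. Gcg was also lowest on Tg replicate 1, but Sst (12.87) and Hhex (6.42) were lowest on Tg replicate 2, and Ppy was highest on Tg replicate 1 (13.79). Its part in the Fbp1 values was not tested.

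**Figure D3:**
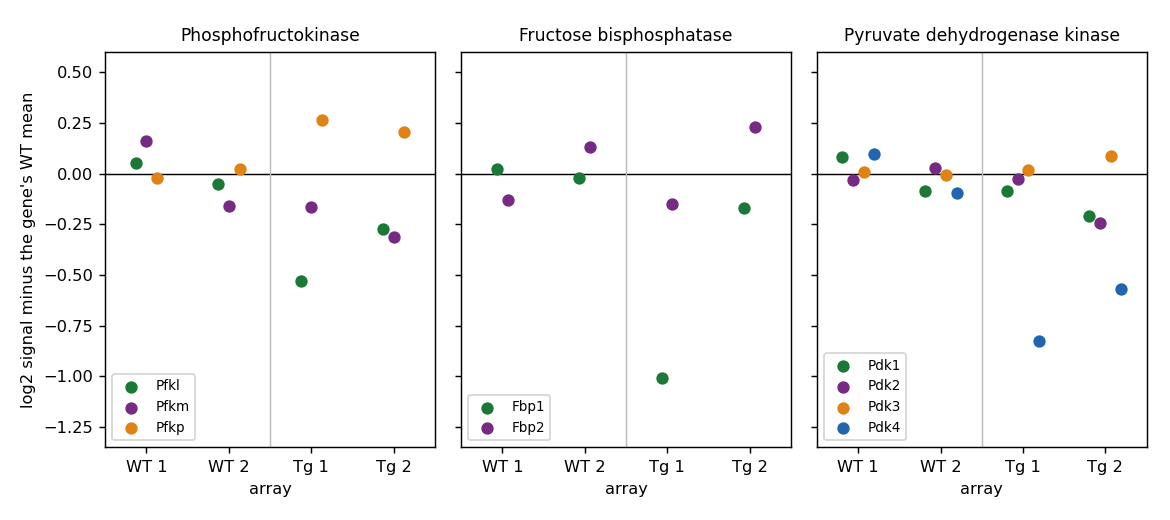
Log2 signal of each array minus the WT mean of the same gene (y axis), by array (x axis), for the isoforms of phosphofructokinase, fructose bisphosphatase and pyruvate dehydrogenase kinase. Pfkp lies above the line on both Tg arrays while Pfkl lies below it, Fbp1 is far below on Tg replicate 1 alone, and Pdk4 is below on both Tg arrays.

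In the middle of the pathway, from aldolase to enolase, the groups overlapped for all 8 measured members. Aldoc, the brain aldolase, had a difference of -0.17 (SE 0.14), and Tpi1, which interconverts the triose phosphates, one of -0.01 (SE 0.11). Gapdh, the dehydrogenase that makes the pathway's NADH, had a difference of -0.02 (SE 0.11) at a level above 99.7% of probesets, where a difference can be compressed. Pgk1, the first ATP-yielding kinase, read 11.44 and 11.61 in WT and 11.32 and 11.47 in Tg (difference -0.13, SE 0.12). Pgk1 was thus lowest on a Tg array and highest on a WT array, with the other two arrays between them.

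Phosphoglycerate mutase and enolase complete this stretch. Pgam1, the common mutase, had a difference of 0.07 (SE 0.11) and a second probeset at 0.10 (SE 0.17). Pgam2, the muscle mutase, was dim, from 4.93 to 5.16, with a difference of -0.07 (SE 0.12). Eno2, the enolase of neurons and endocrine cells, had a difference of -0.13 (SE 0.12) and Eno3, the muscle enolase, one of 0.0085 (SE 0.11). Gapdh and Pgam1 have near-identical pseudogene copies: the annotation also names Gapdh in 8 probesets with a second gene, so values of these genes may include signal from copies. The 2 further Gapdh probesets with 1 symbol had differences of -0.03 and 0.08.

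Pyruvate kinase makes the second ATP of the lower pathway. Pkm, the gene of the M1 and M2 forms, read 11.45 and 11.37 in WT and 11.47 and 11.51 in Tg. The Tg arrays lay just above the WT arrays (difference 0.08, SE 0.10, 95% interval -0.18 to 0.34, adjusted p = 0.849 by limma) at a level above 98.0% to 98.3% of probesets. Pklr, the liver and red cell gene and a classical target of the glucose sensor ChREBP, read 9.15 and 8.78 in WT and 8.84 and 8.82 in Tg. Its Tg arrays lay between the WT arrays, with a difference of -0.13 (SE 0.15).

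Pyruvate dehydrogenase kinases switch off the entry of pyruvate into the mitochondrion, and the largest difference of any measured member was at this step. Pdk4, the isoform induced by fasting and fatty acids in many tissues, read 9.79 and 9.60 in WT and 8.87 and 9.12 in Tg. Both Tg arrays lay below both WT arrays, a 1.62-fold lower mean (difference -0.70, SE 0.14, 95% interval -1.04 to -0.36, unadjusted p = 0.0026). It did not pass over all genes (adjusted p = 0.118 by limma). Over the alternative settings its adjusted p ranged from 0.051 to 0.573, and without Tg replicate 1 its difference of -0.57 was under 1.5-fold.

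The other 3 kinases had smaller differences. Pdk1, the isoform induced by hypoxia, read 7.81 and 7.65 in WT and 7.64 and 7.52 in Tg, a difference of -0.15 (SE 0.12) between groups that nearly touched. A second, dim Pdk1 probeset had a difference of -0.0033 (SE 0.13), and the mean of both gave -0.075. Pdk2, the most widely expressed isoform, had a difference of -0.13 (SE 0.12) and Pdk3 one of 0.05 (SE 0.10). Within each array, the Pdk3 signal minus the Pdk4 signal was -0.55 and -0.38 in WT and 0.38 and 0.19 in Tg, a shift of 0.75 (exact permutation p = 0.333, the smallest possible). This pair was likewise picked after its values were seen.

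Lactate formation and export are known to be low in beta cells. Ldhb, the heart-type lactate dehydrogenase subunit, read 7.84 and 7.53 in WT and 7.69 and 7.60 in Tg (difference -0.04, SE 0.14). Slc16a3, the lactate exporter MCT4, read 6.00 and 6.26 in WT and 6.23 and 6.31 in Tg (difference 0.14, SE 0.13). The groups overlapped for both, and this Slc16a3 probeset lay under the median on every array. A brighter probeset that names Slc16a3 together with a second gene, and so was assigned to neither, read between 9.74 and 9.91 with a difference of -0.11 (SE 0.11).

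For many members the WT arrays differed from each other more than the groups did. This held for 20 of the 31 (64.5%) and for 55.1% of all genes, and the median absolute gap inside a group was 0.17 for WT and 0.10 for Tg, against a median absolute group difference of 0.13. Over all genes the median absolute gap inside WT was 0.14 and the median absolute group difference 0.12. By construction a gap between 2 single arrays varies more than a difference between means of 2 arrays. With no group effect such genes would thus be common. The widest gaps between WT arrays were those of Slc2a1 (0.63 higher on WT replicate 2), G6pc2 (-0.43), Pklr (-0.37), Hk2 (0.34) and Pfkm (-0.32). Pdk4, Fbp1, Pfkl and Pfkp were among the 11 that differed more between the groups than within WT. For Fbp1, however, the Tg arrays lay 0.84 apart, a wider gap than its group difference of -0.59.

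**Figure D4:**
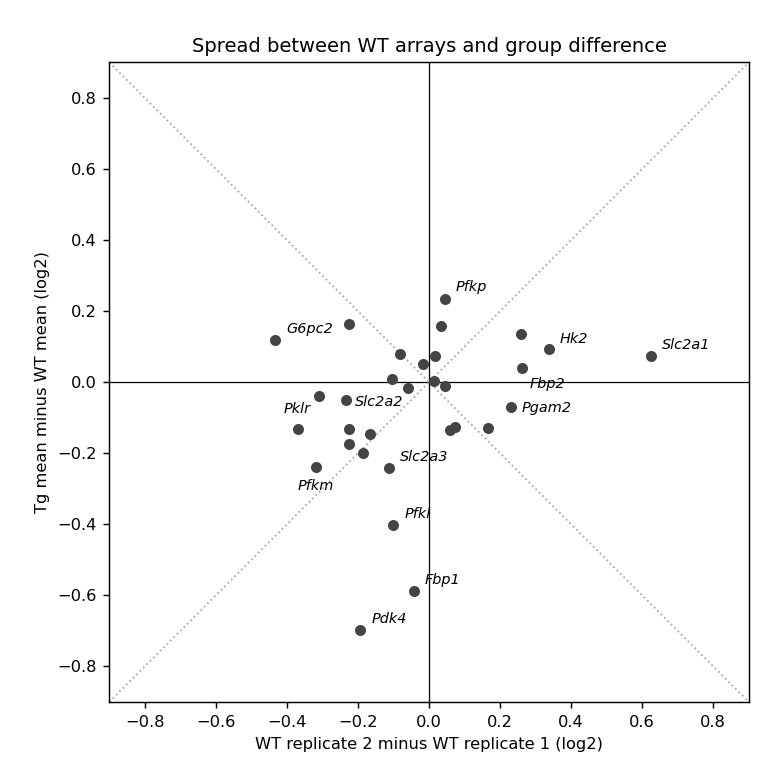
Group difference of each measured member (y axis, Tg mean minus WT mean, log2) against the gap between its WT arrays (x axis, WT replicate 2 minus replicate 1, log2); dotted lines mark equal sizes. Slc2a1 and G6pc2 lie far out along the x axis with group differences of 0.07 and 0.12, and Pdk4, Fbp1 and Pfkl lie low along the y axis.

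Genes next to the members in sugar metabolism were read from 5 further lists. Of 21 measured genes of other glycolytic enzymes and sugar transporters, 1 passed over all genes: Slc2a13, the proton-coupled myo-inositol transporter HMIT, rose 3.55-fold, from 7.74 and 7.41 in WT to 9.46 and 9.33 in Tg (difference 1.83, SE 0.14, adjusted p = 0.012 by limma). In this list Adpgk, a sugar kinase that uses ADP (0.42, SE 0.13), Slc2a10 (-0.32, SE 0.11) and Slc2a12 (-0.28, SE 0.11) had an unadjusted p under 0.05 only, with adjusted p-values of 0.300, 0.366 and 0.397. The list's median difference was -0.05.

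In the other 4 lists none passed over all genes. Of 14 regulators, Egln3, a prolyl hydroxylase that marks hypoxia-inducible factors for degradation, read 6.83 and 6.78 in WT and 7.37 and 7.92 in Tg (difference 0.84, SE 0.19, adjusted p = 0.163 by limma). Mlxipl, which encodes ChREBP, read 10.47 and 9.90 in WT and 9.74 and 9.46 in Tg (difference -0.59, SE 0.21, adjusted p = 0.374). Of 7 pentose phosphate genes, H6pd, which makes NADPH in the endoplasmic reticulum, had a difference of 0.37 (SE 0.11), and of 10 glycogen and polyol genes, Gys2, the liver glycogen synthase, one of 0.44 (SE 0.15). Both had an unadjusted p under 0.05 only. None of 11 genes of pyruvate entry into mitochondria reached that, and their median difference was -0.12.

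The labels were checked against marker genes. Ffar3 had 7.09 and 6.47 in WT and 11.02 and 10.98 in Tg, and all 8 beta cell markers were measured above the array median, with Ins2 between 12.46 and 12.59. Of these 8, 5 had a difference below 0 and 3 above it (median -0.11), 0 passed over all genes by limma, and Ucn3 (-0.60, SE 0.14) and Slc30a8 (-0.33, SE 0.13) had an unadjusted p under 0.05. Their part in the values of the members was not tested. Exocrine RNA was present on every array, with Ctrb1 between 13.56 and 13.89. Endothelial markers had differences above 0 (8 of 8, median 0.50, 0 past the test over all genes), as had mesenchymal ones (8 of 8, median 0.24, 0 past it). Both Tg arrays lay above both WT arrays for 7 endothelial but only 4 mesenchymal markers, against 18.6% of all genes. The groups overlapped for Col1a1, Col1a2, Col3a1 and Lum, with differences of 0.03 to 0.10. On all arrays 1 endothelial and 4 mesenchymal markers lay under the array median. Of 5 measured duct markers, 2 were higher and 3 lower (median -0.01), and Cftr passed.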

How the data were processed

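The deposited values are log2 signals per probeset of Affymetrix Mouse Gene 2.0 ST arrays, normalised by the authors with RMA in Partek, per the submitters' processing notes, which give no versions. No build of the genome is named there or in the labels (not given in the sources used here). From 250 ng of total RNA per array, 4 arrays were made, 2 a group, grouped by their titles. Of 27037 probesets, 23521 were paired with 1 symbol. A gene was read at the brightest of these, with no filter, which left 22180 genes. Tg was compared with WT with lmFit and eBayes of limma 3.58.1 (R 4.3.3), without a replicate block, and Benjamini-Hochberg adjustment over all genes. The fit was run on simulated data drawn from limma's own fitted model. Such data cannot show whether that model holds for these arrays. The members and all gene lists were chosen with earlier results of these data known, so no test was made over a list. Every member is named; of the other lists, up to 4 genes with the smallest unadjusted p under 0.05, and markers where they stand beside a result. Replicate differences correlated at -0.063 between the groups across genes, so replicate numbers were not taken to pair arrays. The number of arrays limits the precision. The p-values set a difference against the spread between these arrays, which limma's moderation draws toward that of all genes. Promoter sequences are from RefSeq.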

Additional observations from a re-analysis of the deposited data

How the results depend on the processing

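The count of members past the adjusted threshold was 0 under the reported settings and under all 12 alternatives fitted, with 1 to 4 members at an unadjusted p under 0.05. The count of all genes moved from 199 to 347 with a variance trend and robust prior, to 0 without moderation (1928 at an unadjusted p under 0.05) and to 38 to 135 as single arrays were left out, with the remaining one of that group taken to vary like the other 2. With the replicate block, which pairs arrays by number, it was 24, and Pdk4 then had an adjusted p of 0.316. The median over the members was -0.089 with the level filter, which kept 24 of them, and -0.073 to -0.032 with each array left out. The count past 1.5-fold and an unadjusted p was 0 to 2 with each array left out (0 without Tg replicate 1; without Tg replicate 2 it was Pdk4 and Fbp1) and 0 at a 2-fold limit. Of 365 differences of members under alternatives, 339 kept their sign and 26 turned it. The level filter, variance trend, missing moderation, replicate block and fit over all single-symbol probesets cannot change a member's difference. This also holds for the mean of probesets in members with 1 probeset. Signs kept there were fixed in advance and make up much of the 339. Throughout all settings, 17 of the 31 members kept their sign. With each array left out the range was -0.24 to 0.39 for Slc2a1, -0.17 to 0.067 for Slc2a2, -0.075 to 0.26 for Hk2, -0.098 to 0.34 for G6pc2, -0.045 to 0.053 for Gckr, -0.28 to 0.022 for Pfkfb3, -0.15 to 0.23 for Fbp2, -0.090 to 0.069 for Tpi1, -0.073 to 0.039 for Gapdh, -0.014 to 0.16 for Pgam1, -0.19 to 0.045 for Pgam2, -0.044 to 0.061 for Eno3, -0.32 to 0.051 for Pklr and -0.19 to 0.12 for Ldhb. Gckr also turned to -0.011 with quantile normalisation once more and to -0.0071 with centred arrays, Eno3 to -0.0029 with centred arrays, and Gapdh to 0.012 with the mean of its probesets and 0.018 with quantile normalisation once more. The cause was not tested. The number of arrays limits the precision of every value here.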
